A study of Mus musculus with 81 samples.

Results

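The genes described here are 10 members of the MHC class I antigen presentation pathway, followed through 5 RNA-seq experiments on a mouse hybridoma mature T cell line in which RBPJ or Notch signalling was altered. They were chosen by name, as the rows Psmb8, Psmb9, Psmb10, Tap1, Tap2, Tapbp, B2m, H2-K1, H2-D1 and Nlrc5 of the count table, which make up 10 of its 24391 genes. All 10 passed the filter on low counts in each of the 5 experiments, so no member is missing from any comparison.

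Class I molecules show peptides from inside the cell to CD8 T cells. The proteasome cuts cytosolic proteins, and in cells that see interferon its catalytic subunits are exchanged for the immunoproteasome subunits Psmb8, Psmb9 and Psmb10. The transporter made of Tap1 and Tap2 moves the peptides into the endoplasmic reticulum, where tapasin (Tapbp) bridges the transporter to an empty class I molecule, a heavy chain such as H2-K1 or H2-D1 paired with beta-2-microglobulin (B2m). Nlrc5 is the transactivator of this gene set and binds no DNA by itself. T cells express the pathway at rest, and interferon gamma, acting in part through Irf1, raises it. RBPJ is the DNA-binding protein of the Notch pathway, which recruits co-repressors in the absence of Notch signalling and the Notch intracellular domain (NICD) when the receptor is cleaved.

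The 5 experiments used the same kind of cell, grown in IMDM with 2% fetal calf serum, and each had its own controls. The first compared lines 2-12 and 2-14, edited by CRISPR with a guide against Rbpj, with the line Control_sgRbpj, in 2 libraries per line. In the second, cells carried NICD1-ER, a Notch1 intracellular domain fused to the estrogen receptor hormone-binding domain, and received 1 uM 4-hydroxytamoxifen (4-OHT) for 4, 8 or 24 h or ethanol for 24 h. The third compared cells with GFP, GFP-KYOT2 wild type or GFP-KYOT2 WWAA, the last a mutant described by the submitters as defective in RBPJ interaction, in 3 libraries each. KYOT2 (Fhl1) is a LIM-domain protein known to bind RBPJ. The fourth set 24 h of the gamma-secretase inhibitor (GSI) DAPT at 20 ug/ml against its solvent DMSO, in 2 libraries each. The fifth crossed the biotinylated Notch1 intracellular domain BioNICD1 wild type, or its empty counterpart Biocontrol, with a control or an RBPJ-depleted background, in 3 libraries per group. The labels do not name the edited line used for this last experiment, and each edited line may stand for a single clone.

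Library totals ranged from 2377028 to 5998832 counts in the depletion experiment, from 4325641 to 5395008 per NICD1-ER library, from 9401514 to 14244209 with KYOT2, from 4992690 to 6327603 with GSI and from 8113019 to 10113741 with BioNICD1. Nothing in the labels states that replicates came from separate cultures, so p-values measure only the spread between these samples, which may be technical. Replicates 1 and 2 of the 4 h and of the 8 h NICD1-ER group differed by less than the sampling noise. Each such pair was counted as 1 sample. The 2 libraries of 24 h 4-OHT also differed by less than that noise. They were kept as 2 samples because they are the only pair of their group. Replicate 1 of 24 h ethanol and of 24 h 4-OHT had no matched column and was not used. Every NICD1-ER group thus held 2 samples. In the BioNICD1 experiment 2 depleted libraries, Biocontrol replicate 3 and BioNICD1 replicate 1, stood apart from their groups, and results that rest on them are given with and without them. Rbpj, the targeted gene, fell in every edited group, from 182 and 133 CPM (counts scaled to library depth) in Control_sgRbpj to between 31.4 and 59.5 in the 2 edited lines, and from between 88.5 and 94.1 to between 18.7 and 19.9 with Biocontrol. Summed T cell markers, 8 of 9 of which are in the table, ran from 579 to 1260 CPM, whereas B cell markers reached at most 0.896 and epithelial markers 0.21, so the T cell label was met by its markers. Levels are CPM after scaling by the trimmed mean of M-values (TMM) within an experiment. Each change is a log2 fold change with its standard error (SE) from edgeR's quasi-likelihood test and is called at a Benjamini-Hochberg adjusted p below 0.05 over all genes tested. In such bulk RNA, a lower share of expressing cells and less RNA per cell cannot be told apart.

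Promoter sequence is shown first for the members whose changes anchor the results, because these promoters differ in their matches to 4 short motifs. RefSeq windows on the build GRCm38.p6, from 250 bases before to 50 bases after a start, were at hand for 8 of the 10 members; Tap2 and Nlrc5 had none. The bases before the start are printed 5′ to 3′ on the gene's strand, and capitals mark every match to the 4 motifs searched on both strands: a GAAA followed by another GAAA after any 2 bases (core of the interferon-stimulated response element), TTCNNNGAA (core of the gamma-activated sequence), TGGGAA (core of the RBPJ site) and CCAAT. The 3 single-gene stretches are chr2:122147437-122147686 (plus strand) for B2m, chr17:35262844-35263093 (plus strand) for H2-D1 and chr8:105938393-105938642 (minus strand) for Psmb10. Psmb9 and Tap1 start in opposite directions 225 bases apart, and the whole stretch between them, chr17:34187331-34187555, is given on the strand of Tap1.
B2m: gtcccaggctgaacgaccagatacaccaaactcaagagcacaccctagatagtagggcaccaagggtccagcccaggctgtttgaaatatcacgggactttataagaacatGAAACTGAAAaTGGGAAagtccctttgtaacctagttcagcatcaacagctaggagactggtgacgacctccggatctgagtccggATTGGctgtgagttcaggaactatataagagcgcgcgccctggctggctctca
H2-D1: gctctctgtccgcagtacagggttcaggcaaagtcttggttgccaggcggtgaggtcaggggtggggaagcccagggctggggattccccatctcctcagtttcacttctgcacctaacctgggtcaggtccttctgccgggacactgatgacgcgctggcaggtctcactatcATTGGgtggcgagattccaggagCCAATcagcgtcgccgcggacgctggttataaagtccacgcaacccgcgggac
Psmb9 and Tap1: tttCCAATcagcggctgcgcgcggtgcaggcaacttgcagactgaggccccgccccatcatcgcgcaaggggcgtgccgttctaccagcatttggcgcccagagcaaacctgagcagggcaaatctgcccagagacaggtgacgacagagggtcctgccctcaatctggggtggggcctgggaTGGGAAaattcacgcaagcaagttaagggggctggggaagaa
Psmb10: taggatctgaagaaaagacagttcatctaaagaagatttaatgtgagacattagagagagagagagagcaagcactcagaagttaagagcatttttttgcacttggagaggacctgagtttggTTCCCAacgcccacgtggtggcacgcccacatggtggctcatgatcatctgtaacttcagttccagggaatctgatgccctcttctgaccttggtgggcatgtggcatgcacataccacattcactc

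The B2m promoter held the interferon element GAAACTGAAA 139 bases before its start, followed after 1 base by TGGGAA at 128 and a CCAAT box (ATTGG on this strand) at 53. The spaced GAAA pair was present in this 1 of the 8 members with a window and in 3.44% of all 32851 RefSeq windows of the same length. Members were counted by gene, with a match in any window of the gene, and the background by window. TTCNNNGAA matched in 1 member, Psmb8, 97 bases before its start, and in 8.3% of all windows. TGGGAA matched in 6 members (Tap1, Tapbp, B2m, Psmb8, Psmb9 and Psmb10) and in 25.6% of all windows; in Psmb8 it lies inside the TTCNNNGAA match, and Psmb9 and Tap1 share a single one. CCAAT matched in 6 members (Tap1, Tapbp, B2m, H2-K1, H2-D1 and Psmb9) and in 37.4% of all windows. Psmb9 and Tap1 again share a single one. A match to so short a motif is a description of the letters, not a binding site, and a window without one says only that these letters are not in it. Of the printed promoters that of Psmb10 is the 1 without CCAAT.

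All 10 class I genes rose with BioNICD1 in control cells, and 0 of them passed the test in RBPJ-depleted cells. In control cells the log2 fold changes ran from 1.07 for Tap2 to 2.44 for Psmb10, with a median of 1.83 against 0.01 over all genes tested. Of all 11315 genes tested, 18.7% were called up in this comparison, and 10 of 10 members were. The members' BioNICD1 groups did not overlap in control cells for any of the 10, whereas 58.6% of all genes tested also had groups that did not overlap.

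**Figure D1:**
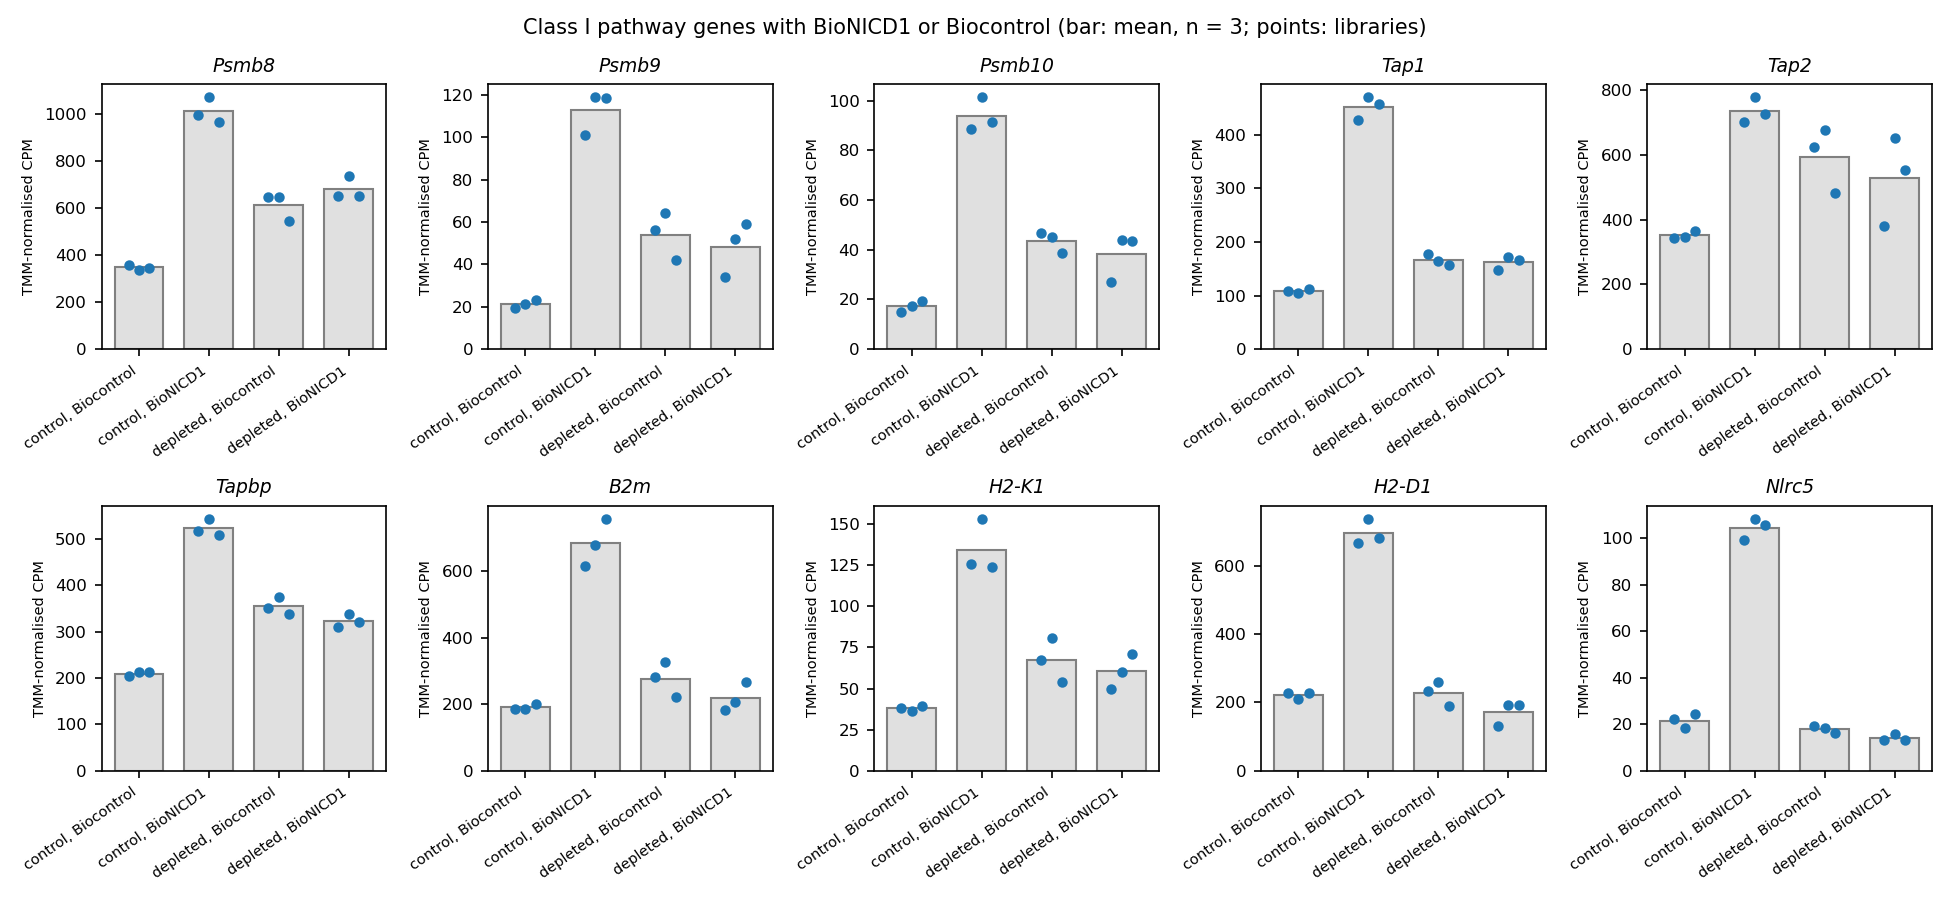
TMM-normalised CPM (vertical axis, from 0) of each of the 10 class I genes in the 12 libraries of the BioNICD1 experiment, 1 panel per gene, with the 4 groups on the horizontal axis, points for libraries and bars for group means. In every panel the 3 libraries of control cells with BioNICD1 lie above all 9 others, as for Nlrc5, with 99.4 to 109 against 12.98 to 24.2.

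Among the immunoproteasome subunits, Psmb8 (the beta5i subunit, with chymotrypsin-like activity) stood at 359, 337 and 346 CPM in the 3 Biocontrol libraries of control cells and at 994, 1071 and 965 in those with BioNICD1. In depleted cells it was at 645, 646 and 544 with Biocontrol and at 651, 734 and 652 with BioNICD1. All depleted libraries thus lay between the 2 control groups. The BioNICD1 change of Psmb8 was 1.54 (SE 0.107, adjusted p = 3.02e-07) in control cells and 0.15 in depleted cells, where it was not called.

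Psmb9, the beta1i subunit, had 19.5, 21.3 and 22.96 CPM in control cells with Biocontrol, and 101, 119 and 118 with BioNICD1. The depleted libraries had 56.2, 64.1 and 41.9 with Biocontrol and 34.1, 51.9 and 59.3 with BioNICD1, so these 2 groups overlapped. The BioNICD1 change was 2.41 (SE 0.2, adjusted p = 1.58e-06) in control cells. Psmb10, the beta2i subunit, followed the same order, at 15.1, 17.4 and 19.5 CPM against 88.6, 101 and 91.5 in control cells. It stood at 46.5, 45.0 and 38.8 in depleted cells with Biocontrol and 27.1, 43.8 and 43.7 with BioNICD1, and its change in control cells was 2.44 (SE 0.173, adjusted p = 3.6e-07). The lowest value for Psmb9 and Psmb10 among depleted cells came from BioNICD1 replicate 1, 1 of the 2 libraries that stood apart.

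Of the constitutive catalytic subunits that these 3 replace, none was called up. Psmb5, Psmb6 and Psmb7 gave 0 calls up and 1 down in control cells by edgeR, where Psmb6 fell by 0.32 (SE 0.0854, adjusted p = 0.0128). The count ratio of Psmb9 to Psmb6 within a library went from 0.152 ± 0.00673 (SD, n = 3) with Biocontrol to 1.01 ± 0.0417 with BioNICD1 in control cells, and was 0.361 ± 0.0727 and 0.358 ± 0.0785 in depleted cells. The ratio of Psmb10 to Psmb7 moved from 0.195 ± 0.0274 to 1.00 ± 0.0876 in control cells, and was 0.358 ± 0.0404 and 0.302 ± 0.0628 in depleted cells. These ratios are not corrected for transcript length and compare libraries, not genes. The ratio of Psmb8 to Psmb5 was 12.5 ± 0.242 and 27.9 ± 5.34 in control cells, and 14.7 ± 5.8 and 26.6 ± 13.4 in depleted cells, with Biocontrol and BioNICD1 in turn. Psmb5 itself had 28.4, 27.6 and 27.4 CPM with Biocontrol and 29.7, 47.0 and 34.9 with BioNICD1 in control cells, higher in each BioNICD1 library but not called. The highest ratio, 42.1, came from depleted BioNICD1 replicate 1, which stood apart and had 15.5 CPM of Psmb5.

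The 2 subunits of the peptide transporter rose to different degrees. Tap1 had 108, 104 and 112 CPM in control cells with Biocontrol and 428, 470 and 458 with BioNICD1, a change of 2.07 (SE 0.0929, adjusted p = 5.37e-09). In depleted cells its values were 177, 164 and 157 with Biocontrol and 148, 171 and 167 with BioNICD1, which overlap. Tap2 had 342, 347 and 364 CPM against 702, 779 and 726 in control cells, the smallest change among the 10, at 1.07 (SE 0.178, adjusted p = 0.0006). Its depleted libraries spread widely, at 625, 677 and 482 with Biocontrol and 380, 652 and 554 with BioNICD1. The ratio of Tap1 to Tap2 counts was 0.308 ± 0.00747 (SD, n = 3) with Biocontrol and 0.615 ± 0.0147 with BioNICD1 in control cells, so the libraries of these groups did not overlap in it. Tapbp, the peptide-loading chaperone, had 203, 213 and 213 CPM against 517, 544 and 508, a change of 1.32 (SE 0.0864, adjusted p = 1.7e-07). In depleted cells Tapbp stood at 351, 376 and 339 with Biocontrol and 310, 339 and 322 with BioNICD1.

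B2m, the invariant light chain, rose from 184, 185 and 201 CPM to 616, 681 and 759 in control cells with BioNICD1, by 1.85 (SE 0.166, adjusted p = 3.19e-06). In depleted cells it had 281, 327 and 221 CPM with Biocontrol and 182, 206 and 266 with BioNICD1. H2-D1, a classical heavy chain, rose from 228, 210 and 228 CPM to 666, 738 and 681, by 1.65 (SE 0.155, adjusted p = 4.97e-06). Its depleted libraries were at 234, 260 and 189 CPM with Biocontrol, which overlaps the Biocontrol group of control cells, and at 130, 191 and 191 with BioNICD1, below every control library. The value of 189 belongs to Biocontrol replicate 3, which stood apart. H2-K1, the other classical heavy chain, rose from 38.4, 36.4 and 39.6 CPM to 126, 154 and 124, by 1.82 (SE 0.159, adjusted p = 2.59e-06). In depleted cells H2-K1 had 67.3, 80.7 and 54.2 CPM with Biocontrol and 49.8, 60.4 and 71.1 with BioNICD1. The classical heavy chain genes are near-identical in stretches and differ between haplotypes, and the haplotype of the line is not given in the sources used here, so how reads were split between H2-K1, H2-D1 and their relatives is uncertain.

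Nlrc5, the transactivator, had 22.03, 18.4 and 24.2 CPM in control cells with Biocontrol and 99.4, 109 and 106 with BioNICD1, a change of 2.28 (SE 0.118, adjusted p = 1.87e-08). In depleted cells it had 19.2, 18.1 and 16.1 CPM with Biocontrol and 12.98, 15.9 and 13.1 with BioNICD1. As for H2-D1, all 3 depleted libraries with BioNICD1 lay below every library of control cells.

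Within depleted cells the BioNICD1 changes of the 10 ran from -0.41 for H2-D1 to 0.15 for Psmb8, with a median of -0.17 against -0.01 over all genes. By edgeR 0 of 10 were called, with the smallest adjusted p at 0.148 (Nlrc5), where 4.14% of all genes were called in either direction. By unadjusted p under 0.05 edgeR passed 2 of them, H2-D1 and Nlrc5, and DESeq2 called 0. Without the 2 libraries that stood apart, an alternative chosen after seeing the data, H2-D1 fell by 0.37 (adjusted p = 0.0204) and the other 9 were not called. H2-D1 also fell when Biocontrol replicate 3 alone was left out, by 0.54 (adjusted p = 0.0417).

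The difference between the 2 responses was tested as an interaction, the BioNICD1 change in depleted cells minus that in control cells. It was below 0 and called for 10 of 10 members, while 13.3% of all genes were called in that direction. The interaction was -2.63 (SE 0.171, adjusted p = 5.62e-07) for Nlrc5, -2.62 (SE 0.236, adjusted p = 9.14e-06) for Psmb10 and -2.57 (SE 0.273, adjusted p = 3.56e-05) for Psmb9. It was closest to 0 for Tap2, at -1.24 (SE 0.25, adjusted p = 0.00424), and Psmb8, at -1.39 (SE 0.149, adjusted p = 3.81e-05). The median was -2.08 against -0.03 over all genes. Without the 2 libraries that stood apart all 10 were called again, from -1.17 for Tap2 to -2.63 for Nlrc5.

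**Figure D2:**
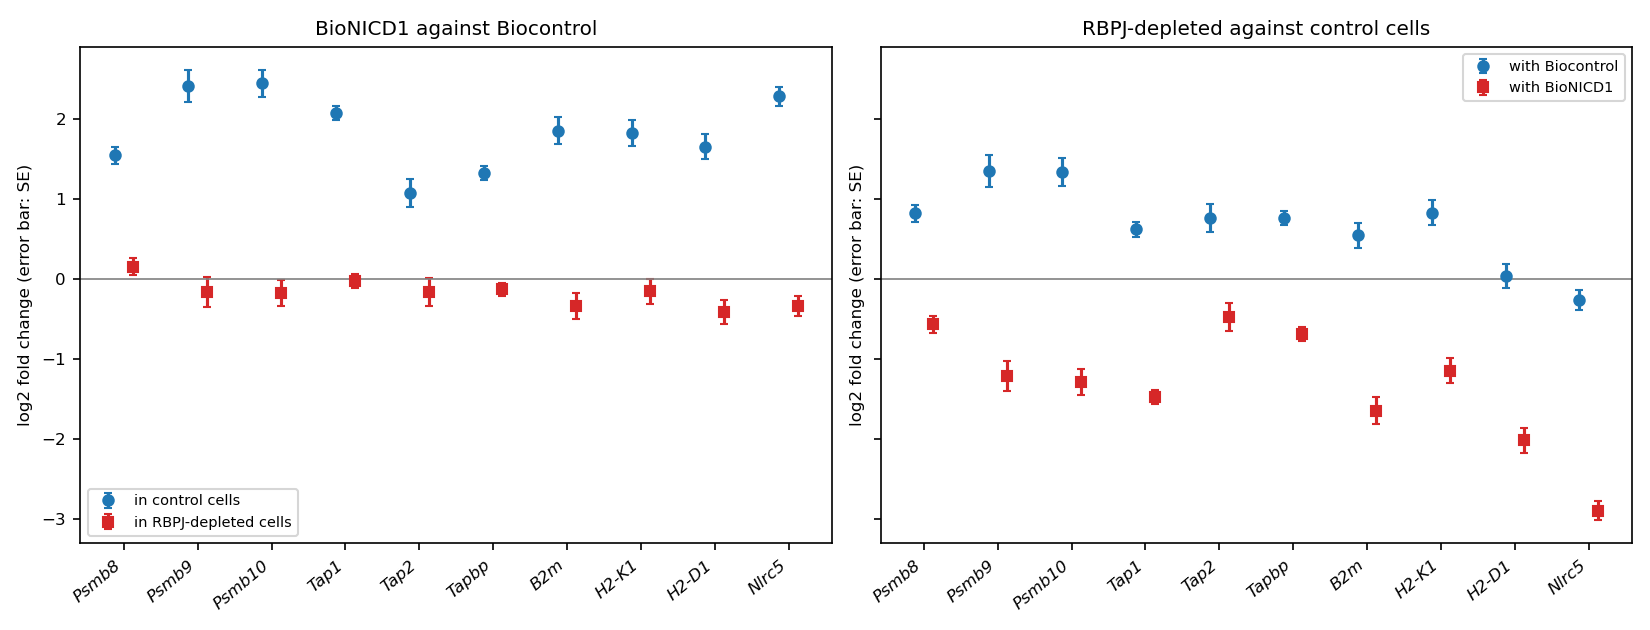
Log2 fold changes of the 10 class I genes (vertical axis) with their standard errors as bars, for BioNICD1 against Biocontrol in each background and for RBPJ depletion with Biocontrol and with BioNICD1. In control cells the BioNICD1 changes lie between 1.07 and 2.44, in depleted cells between -0.41 and 0.15, and depletion is above 0 for 9 genes with Biocontrol and below 0 for all 10 with BioNICD1.

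Read across the other axis of the same experiment, depletion had opposite signs with and without BioNICD1 in the 8 members called with Biocontrol. With Biocontrol, 8 of 10 members were higher in depleted than in control cells, against 21.7% of all genes called up. The changes of the immunoproteasome were 1.35 (SE 0.199, adjusted p = 0.000178) for Psmb9, 1.33 (SE 0.173, adjusted p = 6.69e-05) for Psmb10 and 0.82 (SE 0.106, adjusted p = 6.41e-05) for Psmb8. H2-K1 rose by 0.82 as well (SE 0.158, adjusted p = 0.00126), Tap2 and Tapbp by 0.76 each, and Tap1 by 0.62 (SE 0.0903, adjusted p = 0.000173). B2m rose by 0.54 (SE 0.161, adjusted p = 0.0177), a call that was lost without replicate 1 or 2 of either Biocontrol group, where the adjusted p lay between 0.0506 and 0.0838. H2-D1 stood at 0.04 (adjusted p = 0.865) and Nlrc5 at -0.27 (SE 0.123, adjusted p = 0.0954), and without replicate 2 of the control cells with Biocontrol Nlrc5 fell by 0.38 (adjusted p = 0.0372).

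With BioNICD1 all 10 were lower in depleted than in control cells, against 21.4% of all genes called down. Nlrc5 fell by 2.90 (SE 0.122, adjusted p = 2.96e-09), H2-D1 by 2.02 (SE 0.157, adjusted p = 6.81e-07), B2m by 1.65 (SE 0.164, adjusted p = 6.43e-06) and Tap1 by 1.48 (SE 0.0909, adjusted p = 7.78e-08). Psmb10, Psmb9 and H2-K1 fell by between 1.15 and 1.29, Tapbp by 0.69 and Psmb8 by 0.57. Tap2 fell by 0.48 (SE 0.176, adjusted p = 0.0476), and this call was lost when any 1 of 9 libraries was left out, with an adjusted p up to 0.132. The 9 were all 3 libraries of control cells with Biocontrol, all 3 of control cells with BioNICD1, depleted Biocontrol replicate 1 and depleted BioNICD1 replicates 1 and 3; without depleted BioNICD1 replicate 1 the change was -0.28. These depletion and BioNICD1 comparisons share their 4 groups of libraries, so they are not independent of each other.

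Other parts of the pathway were counted by gene lists, to be read against the 18.7% of all genes called up with BioNICD1 in control cells. Of 23 other class I and class I-like genes, 16 of 18 tested rose with BioNICD1 in control cells (median 2.02), led by H2-T24 at 3.51 (SE 0.187) and H2-M5 at 3.19 (SE 0.753), 0 were called in depleted cells, and 15 had an interaction below 0. H2-Q7 and H2-Q9 had identical counts in 39 of 39 samples, H2-Q6 and H2-Q8 in 38, and H2-T9 and H2-T22 differed by at most 1.66%, so these pairs are not separate measurements. Peptide loading and trimming genes gave 2 of 5 up, Tapbpl (a tapasin relative that edits peptides) at 2.24 (SE 0.117) and Erap1 (the aminopeptidase that trims peptides in the endoplasmic reticulum) at 1.32 (SE 0.0865), while the general chaperones Calr, Canx and Pdia3 were not called. Proteasome activators gave 3 of 4 up, among them Psme1 at 0.91 (SE 0.244, adjusted p = 0.0125) and Psme2 at 0.66 (SE 0.142, adjusted p = 0.00349), the subunits of the PA28 cap. Of the 11 other core subunits of the proteasome, 3 rose, with Psmb2 at 0.83 and Psma1 at 0.64 changing most. Of the class II pathway 4 of 11 genes were tested and 2 rose, Cd74 at 2.19 and H2-Oa at 1.77, and the class II transactivator Ciita was not tested, with at most 0.835 CPM.

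Among regulators of class I genes, 8 of 15 rose with BioNICD1 in control cells, where 18.7% of all genes did. Irf1, an interferon-induced factor that acts on class I promoters, had 100, 98.4 and 97.1 CPM against 592, 619 and 587 in control cells and between 148 and 166 in all 6 depleted libraries. Ifng, which encodes interferon gamma, had 3, 2 and 0 counts in control cells with Biocontrol and 54, 84 and 101 with BioNICD1, that is 5.63, 8.00 and 9.77 CPM. In the 6 depleted libraries Ifng was at most 0.241 CPM. Of the list of interferons and receptors, 4 of 9 tested rose and 2 fell in control cells, and Socs1, a feedback inhibitor of the pathway, rose by 3.81 (SE 0.458). Whether these genes took part in the members' changes was not tested.

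Markers of other cell types were low beside these changes. Myeloid markers summed to between 2.28 and 4.02 CPM in control cells with Biocontrol and between 6.09 and 7.41 with BioNICD1, against 1.88 to 3.90 in depleted cells. NK cell markers were at 0 in every library of this experiment other than control cells with BioNICD1, at 2.09 to 2.42, all of it from Ncr1. T cell markers summed to between 916 and 952 CPM with Biocontrol and between 1180 and 1260 with BioNICD1 in control cells. Their part in the members' changes was not tested.

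RBPJ depletion without added NICD raised Psmb10 in the lines 2-12 and 2-14. In the fit without the replicate number as a block it was the 1 member called, up in both lines together (1 of 10, against 6.21% of all genes up). The same held in line 2-12 (4.83% up) and in line 2-14 (3.4% up). With the block, 4 other members were also called down over both lines, against 18.5% of all genes, as given below. Psmb10 had 29.6 and 33.8 CPM in Control_sgRbpj, 58.1 and 63.6 in line 2-12 and 64.6 and 61.2 in line 2-14, and the groups did not overlap; the same held for 43.8% of all genes over both lines, 56.1% in 2-12 and 53.9% in 2-14. Its change was 0.95 (SE 0.132, adjusted p = 0.00927) for both lines, 0.93 (SE 0.147, adjusted p = 0.0173) in 2-12 and 0.98 (SE 0.147, adjusted p = 0.0153) in 2-14. In each single line the call was lost without control replicate 1 and without either library of that line, with an adjusted p of 0.0629 to 0.113. DESeq2 called Psmb10 up in all 3 comparisons. The other 2 immunoproteasome subunits stood at -0.13 (Psmb8, adjusted p = 0.566) and -0.12 (Psmb9, adjusted p = 0.584).

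**Figure D3:**
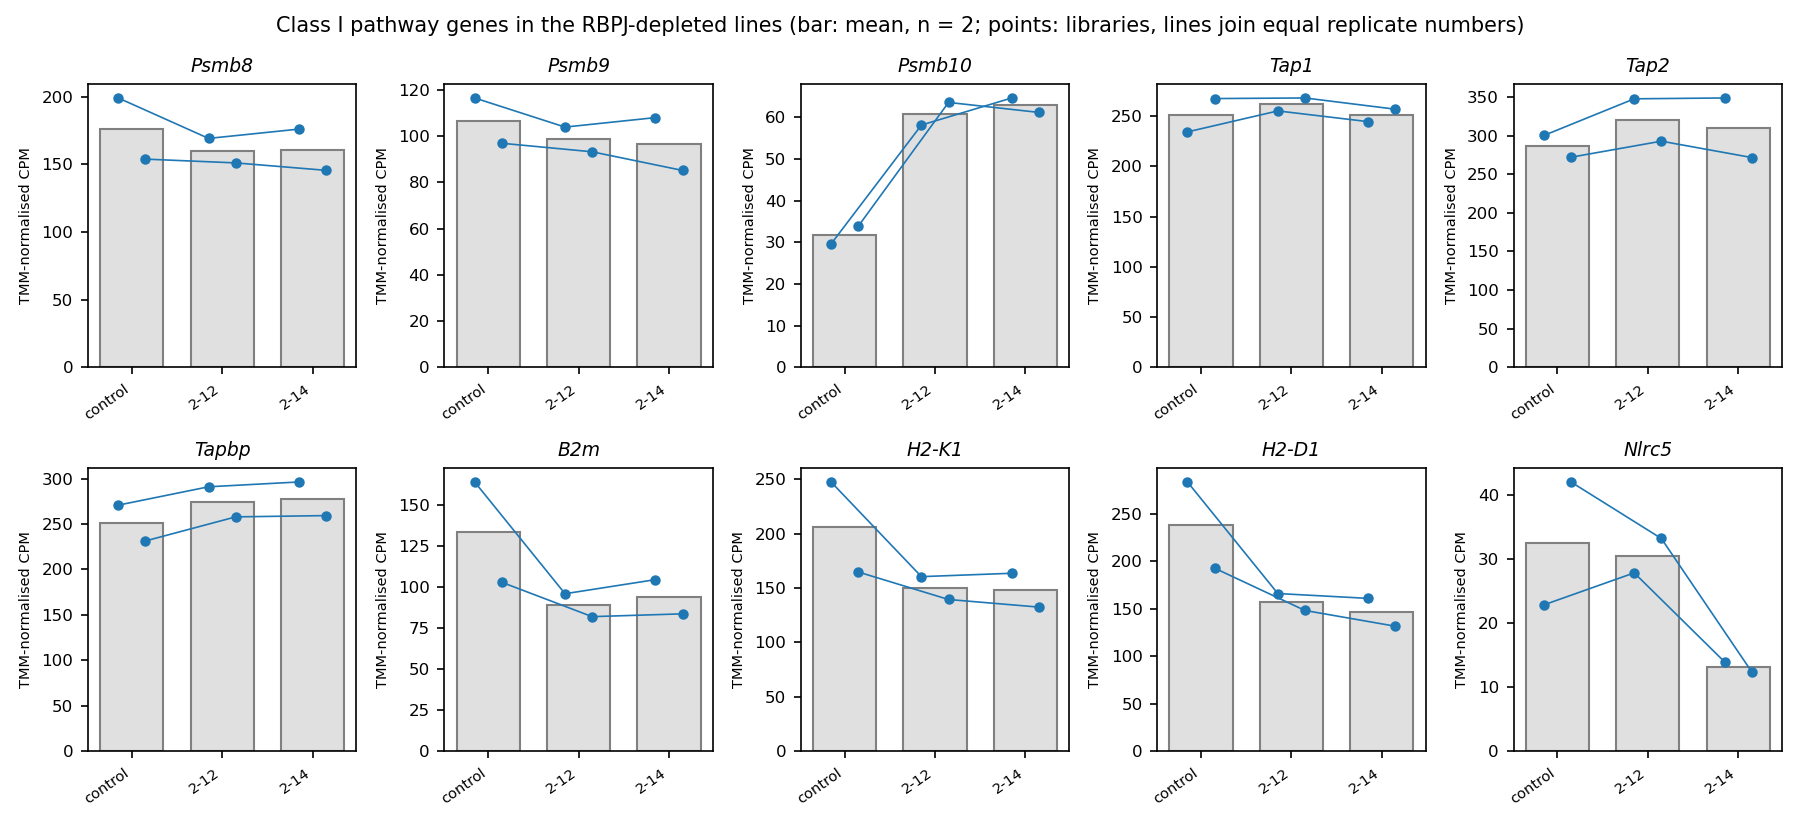
TMM-normalised CPM (vertical axis, from 0) of each of the 10 class I genes in the libraries of Control_sgRbpj and the edited lines 2-12 and 2-14, with points for libraries, bars for means (n = 2) and lines joining libraries of the same replicate number. Psmb10 lies at 58.1 to 64.6 in the 4 edited libraries and at 29.6 and 33.8 in the control, and replicate 1 lies above replicate 2 of the same line for B2m, H2-D1 and H2-K1.

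The heavy chains and B2m lay below the control in most libraries, and their calls depended on the replicate number. H2-D1 had 283 and 193 CPM in the control, 166 and 148 in line 2-12 and 161 and 132 in line 2-14. H2-K1 had 247 and 165 CPM, 160 and 139, and 164 and 132. B2m had 164 and 103 CPM, 95.9 and 82.0, and 105 and 83.7. In all 3 genes replicate 1 was above replicate 2 in each line, most widely in the control. Without the replicate number as a block the changes over both lines were -0.64 (SE 0.172, adjusted p = 0.0616) for H2-D1, -0.46 (SE 0.181, adjusted p = 0.148) for H2-K1 and -0.53 (SE 0.202, adjusted p = 0.138) for B2m, and edgeR called none, while all 3 passed an unadjusted p of 0.05 and DESeq2 called H2-D1.

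In this experiment same-numbered libraries deviated together, with correlations of 0.559 to 0.75. With the replicate block H2-D1 fell by 0.62 (SE 0.0903, adjusted p = 0.00113), H2-K1 by 0.44 (SE 0.0908, adjusted p = 0.00614) and B2m by 0.50 (SE 0.0993, adjusted p = 0.00501). Nlrc5 fell by 0.75 (SE 0.187, adjusted p = 0.0134) in that fit, which makes 4 of 10 members down, against 18.5% of all genes called down with the block. Psmb10 rose by 0.95 (adjusted p = 0.000433) with it. Leaving out control replicate 2 without a block gave changes of -0.85 for B2m, -0.74 for H2-K1 and -0.91 for H2-D1. Control replicate 1 was then the only control library. It had the fewest counts of the experiment, 2377028, and the higher control value of each of these genes.

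Nlrc5 was the member in which the 2 edited lines differed most. It had 22.9 and 42.1 CPM in the control, 27.9 and 33.2 in line 2-12 and 14.0 and 12.4 in line 2-14, so line 2-14 lay below the control and line 2-12 within its range. The change was -0.12 (adjusted p = 0.811) in 2-12 and -1.35 (SE 0.303, adjusted p = 0.056) in 2-14, where DESeq2 called it down (-1.33, adjusted p = 0.0162). Between the lines 0 of 10 members were called, where 0.484% of all genes were called in either direction, and the line difference of Nlrc5 was 1.22 (SE 0.298, adjusted p = 0.292). It was the 1 member with an unadjusted p under 0.05 there, and DESeq2 called 0. With the replicate block it was 1.24 (SE 0.221, adjusted p = 0.0187), and the change in 2-14 was -1.37 (adjusted p = 0.0031). Over both lines Nlrc5 fell by 1.07 (adjusted p = 0.0438) without control replicate 1. Tap1, Tap2 and Tapbp stood at 0.03, 0.14 and 0.14 over both lines, with overlapping groups and no call under either fit.

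Depletion was thus measured in 2 experiments whose values can only be set side by side, since they were fitted separately and the edited line of the second is not named. Psmb10 was up in both, at 0.95 here and 1.33 with Biocontrol. Psmb9 stood at -0.12 here and 1.35 with Biocontrol, Psmb8 at -0.13 and 0.82, Tap2 at 0.14 and 0.76, B2m at -0.53 and 0.54, and H2-K1 at -0.46 and 0.82. The difference between the experiments was not tested. The libraries of the 2 experiments also differed in ratios between members: the count ratio of H2-K1 to H2-D1 had a median of 0.954 in the depletion experiment and 0.247 in the BioNICD1 experiment, and that of Psmb9 to Psmb8 was 0.614 and 0.0821.

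Of the 15 regulators, 3 rose over both edited lines, where 6.21% of all genes did: Irf1 by 0.73 (SE 0.103), Irf9 by 0.72 (SE 0.153) and Irf8, which had 0 counts in both control libraries and means of 1.7 and 3.3 CPM in lines 2-12 and 2-14. Tapbpl rose by 1.12 (SE 0.213) and Erap1 by 0.70 (SE 0.114). Of 20 other class I genes tested 5 fell, H2-Q5 by 1.01 and H2-Q7 by 0.97 among them, where 3.68% of all genes were called down. H2-Q7 and H2-Q9 had identical counts, so the 5 are not 5 separate measurements. In line 2-12 the neonatal Fc receptor gene Fcgrt, a class I-like heavy chain, rose from a mean of 0.412 to 22.6 CPM. The constitutive subunits Psmb5, Psmb6 and Psmb7 gave 0 calls.

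Some markers of other cell types also moved in these lines. The 5 myeloid markers summed to 0.448 to 1.03 CPM in the control, 3.92 to 4.6 in line 2-12 and 0.979 to 1.14 in line 2-14, and Itgam, listed at 0 in the control, was called up in line 2-12 at a mean of 3.28 CPM. The 3 erythroid markers summed to 10.8 to 13.2 CPM in the control, 3.15 to 3.58 in 2-12 and less in both libraries of 2-14, with a lowest sum of 0.734, and Hba-a1 fell by 2.54 (SE 0.342, adjusted p = 0.00819) over both lines. Their part in the members' changes was not tested.

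In cells with NICD1-ER, 4-OHT was followed by a change of Nlrc5 and by no call of the other class I genes against ethanol. No labelled sample was of cells without NICD1-ER given 4-OHT. An effect of 4-OHT itself thus cannot be told apart from activation of NICD1-ER. With 4-OHT for 4 h all 10 stood between -0.14 and -0.02 and 0 were called, against 6.25% of all genes called in either direction. At 8 h they stood between -0.12 and 0.12 and 0 were called, against 10.4%. By unadjusted p under 0.05 edgeR passed 0 of 10 at either time, and DESeq2 called 0. At 24 h Nlrc5 was the 1 member called, where 6.59% of all genes were called up; DESeq2 called the same gene. Nlrc5 had 69.7 and 68.9 CPM with ethanol, 67.1 and 63.7 at 4 h, 74.8 and 76.4 at 8 h and 101 and 102 at 24 h. The 24 h samples lay above all others, with a change of 0.56 (SE 0.0622, adjusted p = 7.93e-06) against ethanol. The samples of 24 h 4-OHT differed by less than the sampling noise, so their spread may be technical only.

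**Figure D4:**
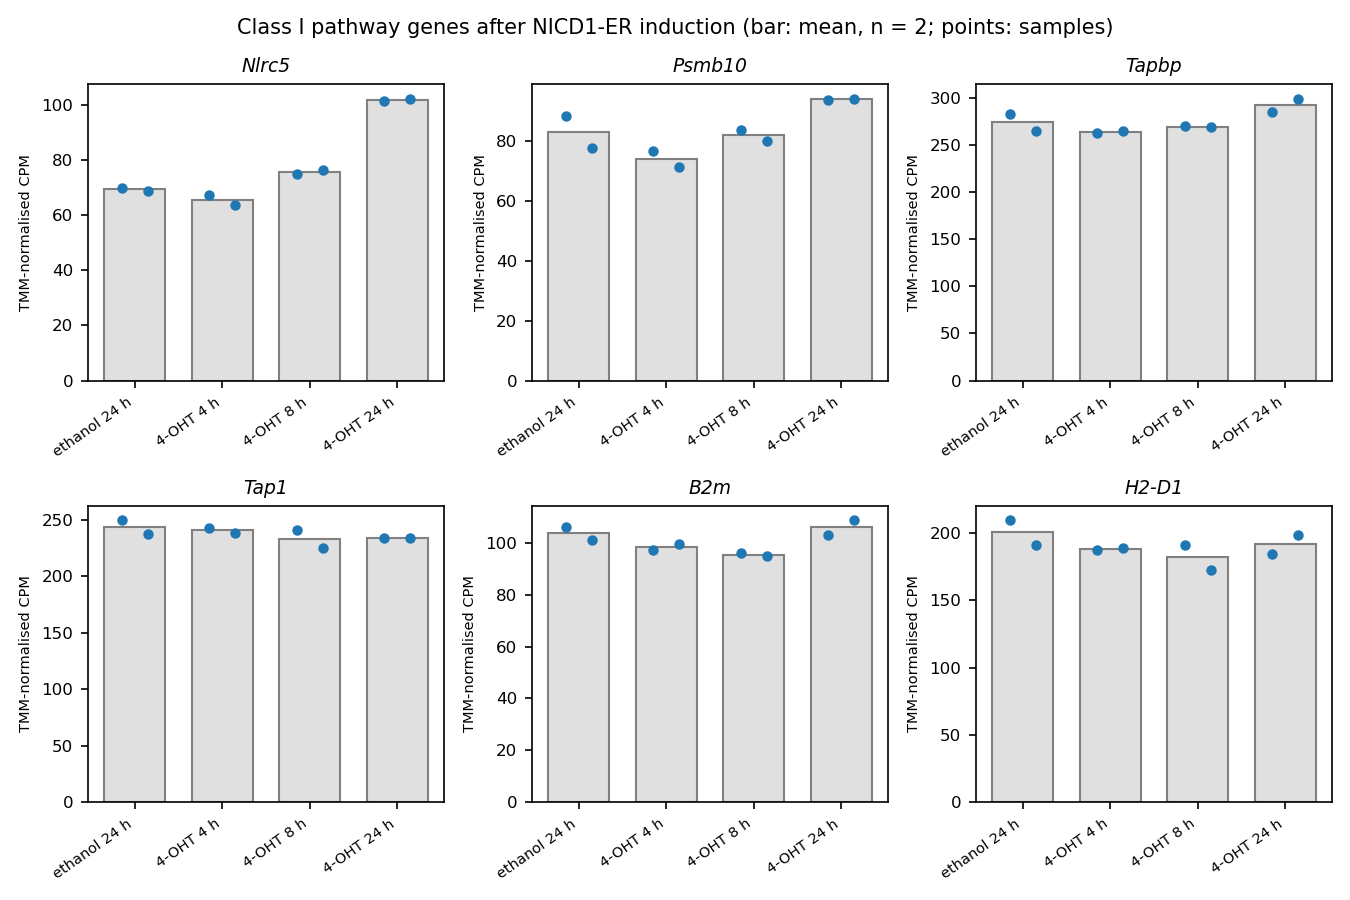
TMM-normalised CPM (vertical axis, from 0) of Nlrc5, Psmb10, Tapbp, Tap1, B2m and H2-D1 in cells with NICD1-ER after ethanol for 24 h and 4-OHT for 4, 8 and 24 h, with 2 samples per group as points and group means as bars. Nlrc5 reaches 101 and 102 at 24 h against 68.9 to 69.7 with ethanol, while B2m stays between 94.8 and 109 in all 8 samples.

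Ethanol was sampled at 24 h only, so the 24 h group was also compared with 4 h of 4-OHT, where 3 members rose against 8% of all genes. Nlrc5 rose by 0.63 (SE 0.057, adjusted p = 1.17e-06). Psmb10, at 76.8 and 71.5 CPM at 4 h and 93.7 and 94.2 at 24 h, rose by 0.33 (SE 0.066, adjusted p = 0.00306), though not by DESeq2 (adjusted p = 0.0968). Against ethanol, at 88.6 and 77.7 CPM, its change was 0.18 (adjusted p = 0.127), and 0.27 (adjusted p = 0.0372) without ethanol replicate 2, which made 2 calls. Tapbp, at 264 and 265 CPM at 4 h and 285 and 300 at 24 h, rose by 0.15 (SE 0.0467, adjusted p = 0.049), a call lost under DESeq2 (adjusted p = 0.494) and with size factors by relative log expression (0.0517), and without any 1 of 6 samples, namely those of 4 h, 8 h and 24 h of 4-OHT (0.066 to 0.37). The heavy chains, Tap1, Tap2, B2m, Psmb8 and Psmb9 were not called at any time. The median of the 10 at 24 h against ethanol was 0.01.

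Genes of the other lists were called at 24 h of 4-OHT. Of 9 interferons and receptors tested, 2 rose and 2 fell, and of 15 regulators 4 rose and 1 fell. Irf1 went from a mean of 176 to 218 CPM, by 0.31 (adjusted p = 0.000798). Ifng went from 0.844 to 3.56 CPM, by 2.07 (adjusted p = 0.00874). Tapbpl rose by 1.24 (SE 0.0931), and 4 of 21 other class I genes tested rose, led by H2-T24 from 24.9 to 48.8 CPM. The 21 include H2-T9 and H2-T22, which are not separate measurements. Rbpj itself was lower with 4-OHT at each time, by 0.42 at 24 h (SE 0.0481, adjusted p = 9.91e-06).

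With GFP-KYOT2 edgeR called none of the class I genes in the fit without a replicate block. For wild type against GFP 0 of 10 were called, where 0.888% of all genes were called in either direction, for WWAA against GFP 0 of 10, against 0.0897%, and for wild type against WWAA 0 of 10, against 1.87%. B2m stayed between 943.5 and 997.8 CPM over the 9 libraries. Tapbp had 280.1, 285 and 291 CPM with GFP, 327, 316 and 302 with wild type and 285, 285 and 265 with WWAA, so wild type lay above both other groups. Its difference between wild type and WWAA was 0.18 (SE 0.0475, adjusted p = 0.0815). With the replicate block it was 0.18 and called (adjusted p = 0.0117), in a fit that called 567 of all genes against 208 without the block. When the libraries numbered 3 were left out, an alternative chosen after seeing the data, that comparison was called (adjusted p = 0.00187), as was wild type against GFP, at 0.19 (adjusted p = 0.00165). Nlrc5, at 9.73, 8.31 and 9.88 CPM with GFP and 11.6, 12.5 and 11.7 with wild type, differed by 0.36 (SE 0.132, adjusted p = 0.253). By unadjusted p under 0.05 edgeR passed 3 of the 10 for wild type against GFP (Nlrc5, Tap1 and Tapbp), 0 for WWAA against GFP and 1 for wild type against WWAA (Tapbp), and DESeq2 called 0 in all 3 comparisons.

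Gamma-secretase inhibition, which stops the release of NICD from Notch receptors, was followed by small rises in 3 of 10 members, against 9.16% of all genes called up. Nlrc5 had 84.5 and 91.4 CPM with DMSO and 107 and 105 with GSI, a change of 0.26 (SE 0.057, adjusted p = 0.000888). Psmb10 had 42.4 and 40.3 CPM against 47.2 and 51.6, a change of 0.26 (SE 0.081, adjusted p = 0.0249). H2-D1 had 201 and 180 CPM against 213 and 210, a change of 0.15 (SE 0.0487, adjusted p = 0.0214). The groups did not overlap in these 3 genes, but 59.1% of all genes tested also had groups that did not overlap. DESeq2 called 0 of the 10. The count of calls was 1 without GSI replicate 2 or DMSO replicate 2 and 7 without DMSO replicate 1. Each of the 4 fits that left out 1 library had a single library in 1 group. Nlrc5 was called in all 4. The H2-D1 call was lost in 3, and without DMSO replicate 2 the H2-D1 change was 0.08. The Psmb10 call was lost without GSI replicate 2 (change 0.19) and without DMSO replicate 2 (change 0.22). The 2 GSI libraries differed by less than the sampling noise and were kept as 2 samples because they are the only pair of the group. Psmb9 stood at -0.05 and the other 6 between 0.04 and 0.11. Of the other lists, Tapbpl rose by 0.81 (SE 0.16), Irf1 by 0.21 and Cd74 by 2.07.

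**Figure D5:**
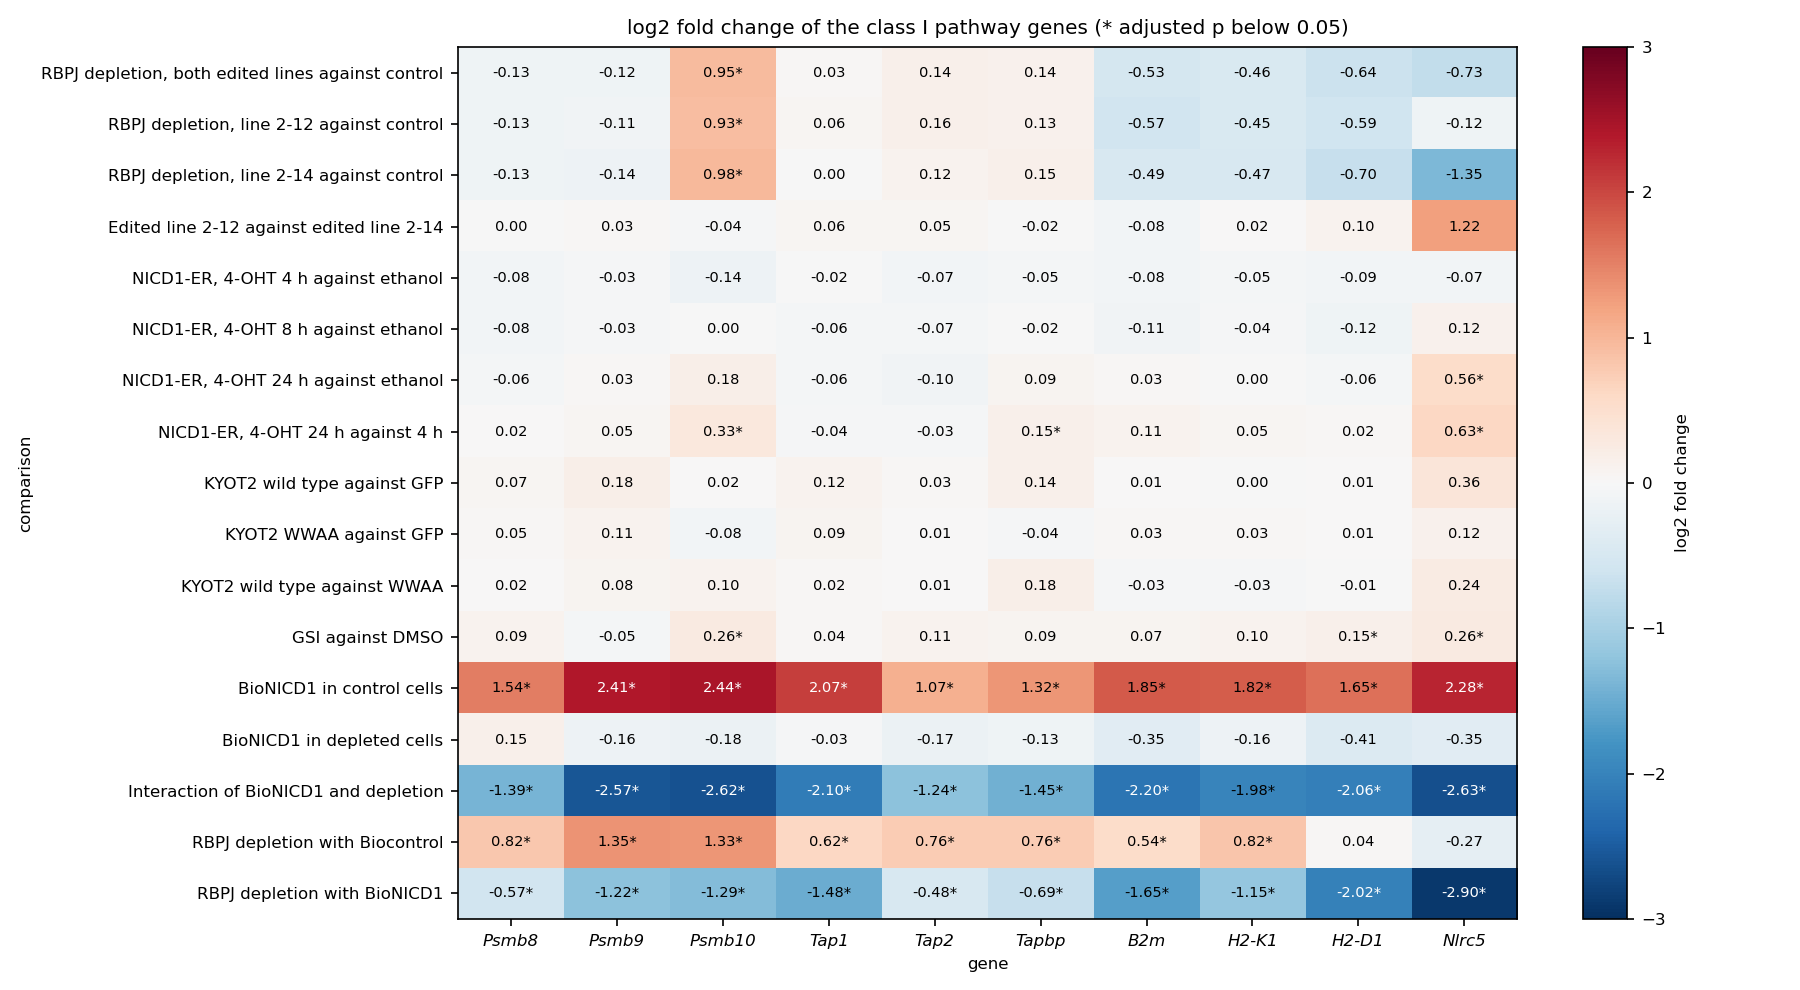
Log2 fold changes of the 10 class I genes (columns) in each comparison (rows), printed in each cell and coloured blue below and red above 0. An asterisk marks edgeR's adjusted p below 0.05 in the fit without a replicate block. Asterisks fill the row of BioNICD1 in control cells (10 of 10 up), the interaction and the depletion row with BioNICD1 (10 of 10 down), and mark 8 genes in the depletion row with Biocontrol and at most 3 in any other row.

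Nlrc5 and Psmb10 departed most from the other members. Over the 11 groups of the 5 experiments, each expressed against its own control, the Pearson correlation of a member with the mean of the other 9 was 0.984 for Tap1, 0.966 for H2-K1, 0.961 for B2m, 0.956 for Psmb9, 0.946 for Tapbp, 0.931 for Psmb8, 0.902 for Tap2 and 0.839 for H2-D1, and lower for Psmb10 at 0.775 and Nlrc5 at 0.65. These values are a description: the groups share controls within an experiment, and the BioNICD1 group of control cells carries most of the spread. Among all 10409 genes with values in the 5 experiments, the profiles most like the mean of the members were those of Ccnd3 (0.988), Cd82 (0.98), H2-T9 (0.979), H2-T22 (0.978) and Psme2b (0.976), the last a relative of the PA28 subunit gene Psme2.

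The 5 experiments differed in the members' starting levels as well as in their changes. In control libraries B2m had 103 to 164 CPM in Control_sgRbpj, 101 and 106 with ethanol, 98.1 and 99.9 with DMSO, 943.5 to 973 with GFP and 184 to 201 with Biocontrol. Nlrc5 had 22.9 to 42.1, 68.9 and 69.7, 84.5 and 91.4, 8.31 to 9.88 and 18.4 to 24.2 CPM in the same order. The medians over all libraries of the Psmb8 to Psmb5 ratio were 2.96 for the depletion experiment, 3.05 for NICD1-ER, 8.41 for KYOT2, 2.99 for GSI and 18.9 for BioNICD1. Levels were scaled within an experiment only, so these values are set side by side with no test, and what separates the experiments was not tested.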

How the data were processed

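RNA-seq counts per gene were deposited by the authors in 1 table of 24391 genes and 65 columns, of which 41 were matched by heading to a sample of the labels; the other 24 were not used, and 2 of these share 1 heading. Reads were aligned to mm9 with TopHat2 2.1.1, and Picard and deepTools were also used, per the submitters' processing notes, with no role given for each. The counter, the annotation and the strand setting are not given in the sources used here. The deposited counts are raw and hold no row without a gene name.

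Each experiment was fitted separately with edgeR 4.0.16 in R 4.3.3 (TMM factors, filterByExpr, 1 coefficient per group, glmQLFit and glmQLFTest, two-sided), over 11150 to 11808 genes, with Benjamini-Hochberg adjustment over all genes tested and a threshold of 0.05. The standard error is the absolute log2 fold change divided by the square root of F. Fits were tested on simulated counts with 1 spread for all genes, no replicate effect and no outlying library. That test does not cover the wider spread of some groups here. Replicates 1 and 2 of the 4 h and the 8 h NICD1-ER group were summed, which departs from the planned 1 column per library. In the depletion experiment same-numbered libraries deviated together (correlations 0.559 to 0.75, 3 pairs of lines), so the numbers were taken as pairs and both fits are given. All 10 members are named in every comparison, and of the other lists at most the 2 genes with the largest called change, plus Psmb5, Psmb6, Psmb7, Psme1, Psme2, Irf1, Ciita, Ifng and Rbpj; 1 further gene of that rule is not reported here. Calr, Canx, Pdia3, Cd82, Ccnd3 and Psme2b were named otherwise, the last 3 by likeness of profile (log2 of CPM plus 0.5). The members and lists were chosen with earlier results of these data known. Peak lists were not used, for want of an annotation of mm9. Alternatives were DESeq2 1.42.0, relative log expression factors, no filter on low counts, each library left out, a replicate block, CPM by library total and others named with their values.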

Additional observations from a re-analysis of the deposited data

Results flagged for a closer look

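The response to BioNICD1 differed between control and RBPJ-depleted cells in all 10 class I genes, by the interaction test itself. The difference, depleted minus control on the log2 scale, was -1.39 for Psmb8, -2.57 for Psmb9, -2.62 for Psmb10, -2.1 for Tap1, -1.24 for Tap2 and -1.45 for Tapbp. It was -2.2 for B2m, -1.98 for H2-K1, -2.06 for H2-D1 and -2.63 for Nlrc5.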

How the results depend on the processing

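With BioNICD1 in control cells, 10 of 10 members rose under each alternative run, and 10 of 10 interactions were below 0; leaving out 1 library gave 10 and 10. No direction turned among called results. In the depletion experiment 0 members were down over both lines, against 1 by DESeq2, 4 without a filter and 4 with the replicate block. The same count was 3 and 3 (no filter, replicate block) in line 2-12, and 2, 4 and 4 (DESeq2, no filter, replicate block) in line 2-14. Between the lines 1 member (Nlrc5) was up without a filter and 1 with the replicate block. For 24 h against 4 h of 4-OHT, DESeq2 called 1 up; for GSI it called 0. For KYOT2 wild type, 1 member (Tapbp) was up against GFP without the libraries numbered 3, and 1 against WWAA both without them and with the replicate block. In depleted cells 1 member (H2-D1) fell with BioNICD1 without the 2 libraries that stood apart. These last alternatives, which left out the libraries numbered 3 or the 2 that stood apart, were chosen after seeing the data.

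Leaving out each library in turn gave, for members called up, 1 to 1 over both edited lines, 0 to 1 in 2-12, 0 to 1 in 2-14, 1 to 2 for 24 h of 4-OHT against ethanol, 2 to 3 against 4 h, 1 to 7 for GSI and 7 to 8 for depletion with Biocontrol. For members called down it gave 0 to 3 over both edited lines, 0 to 3 in 2-12, 0 to 1 in 2-14, 0 to 1 with BioNICD1 in depleted cells, 0 to 1 for depletion with Biocontrol and 9 to 10 for depletion with BioNICD1. The cause of these changes was not tested.

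Counts over all genes moved by more than 1.5 times in these cases. In the depletion experiment they were 1144 (both lines), 805 (2-12), 584 (2-14) and 56 (between lines), against 2671, 2126, 1870 and 302 without a filter, 4260, 3672, 3243 and 282 with the replicate block, and 109 between lines by DESeq2. For NICD1-ER they were 738, 1225, 1276 and 1584 (4 h, 8 h, 24 h, 24 h against 4 h), against 210, 408, 591 and 433 by DESeq2, and 1223 at 4 h with a block and every library a sample, 2 choices at once. For KYOT2 they were 99, 10 and 208, against 262, 66 and 395 without a filter, 320, 67 and 567 with the block, 465, 279 and 629 without the libraries numbered 3, and 22 for WWAA by DESeq2. For GSI 2414 became 605 by DESeq2. For BioNICD1 in control cells 3723 became 5847 with only the 2 groups and 5882 without the 2 libraries; in depleted cells 469 became 758 (DESeq2), 4 (2 groups) and 1285; the interaction went from 2548 to 4665. Leaving out 1 library moved such counts by more than 1.5 times as well, and the shares of all genes given beside the members move with them: 379 to 2511 (both edited lines), 259 to 1914 (2-12), 200 to 1303 (2-14), 3 to 54 (between lines), 434 to 729 (4 h), 614 to 1434 (8 h), 746 to 1420 (24 h), 702 to 1774 (24 h against 4 h), 50 to 239 (KYOT2 wild type), 6 to 18 (WWAA), 79 to 239 (wild type against WWAA), 1436 to 2276 (GSI), 165 to 1224 (BioNICD1 in depleted cells) and 1614 to 4361 (the interaction). The highest counts came without Control_sgRbpj replicate 2 in both edited lines and each of them, without WWAA replicate 3 for KYOT2 wild type against GFP and for WWAA, and without depleted Biocontrol replicate 3 for the last 2. Same-numbered libraries correlated at 0.0611 to 0.492 with KYOT2, 0.00298 to 0.288 with NICD1-ER, 0.0212 with GSI and -0.551 to 0.685 with BioNICD1. In these experiments the numbers were not taken as pairs. With KYOT2, though, every same-number correlation was positive. There 8 of 9 libraries correlated best with their own number, so same-numbered libraries may share some deviation. Scaling by library total in place of TMM shifted all genes by -0.12 for BioNICD1 in depleted cells and by -0.193 for the interaction. Groups hold 2 or 3 samples and 2377028 to 14244209 counts, which limits small changes of low genes such as Nlrc5 with KYOT2. Comparison with peak lists was not run.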
